A study of Mus musculus with 4 samples.

Results

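The genes described here are the phosphodiesterases (Pde), the enzymes that break down cyclic AMP and cyclic GMP, and the adenylyl cyclases (Adcy), the enzymes that make cyclic AMP. They were taken as every gene symbol that starts with Pde or Adcy directly followed by a digit and that had at least 10 unique molecular identifiers (UMIs, counts of captured RNA molecules) summed over the libraries used. Of 32285 gene identifiers, 36 carried such a symbol and 33 reached the minimum, 24 named Pde and 9 named Adcy. Together they held 78828 UMIs, 0.575% of all. The other 3 were Pde6c with 9 UMIs, Pde6g with 2 and Adcy4 with 0. A symbol is not a function, and 4 members carry the name without being cyclic nucleotide hydrolases: Pde4dip encodes myomegalin, a scaffold that binds Pde4d; Pde12 encodes a mitochondrial enzyme that trims RNA tails; Pde6d encodes a carrier of prenylated proteins; and Pde6h encodes an inhibitory subunit of the cone photoreceptor enzyme.

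The study profiled nuclear RNA of whole hypothalamus from aging mice of about 18 months, transplanted with hypothalamic stem cells made from human pluripotent stem cells or left as controls, with 2 samples under each label. Strain and sex are not given in the sources used here, and some titles join 2 animal codes without saying whether nuclei were pooled. The matrices labelled transplanted and control held the same nuclei: 3997 of 4008 barcodes of the first control library (99.7%) and 2144 of 2150 of the second (99.7%) recurred in the transplanted matrix of the same number, while every other pair of matrices shared 4 barcodes. Member counts differed between the deposits of a pair by 0.203 and 0.149 times the sampling noise, so no effect of transplantation can be estimated, and each set of nuclei was counted as 1 sample. The counts do not tell which label is right for either set of nuclei. Whether a set came from control or transplanted mice is therefore unknown, and the sets may differ in treatment.

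Below, library A is the matrix labelled control replicate 1, with 4008 nuclei and 8779880 UMIs, and library B is that labelled control replicate 2, with 2150 nuclei and 4924563 UMIs. Where a pair of values is given for a class, library A comes before library B. Clustering without the members gave 22 clusters, and marker lists named 2972 and 1452 nuclei neurons, 303 and 201 astrocytes, 375 and 291 oligodendrocytes, 134 and 73 oligodendrocyte precursors, 116 and 57 tanycytes and 55 and 47 microglia. A cluster of 53 and 29 nuclei with both neuron and oligodendrocyte markers was left unnamed. The tanycyte cluster also had the haemoglobin gene Hbb-bs among its 10 leading genes. Median depth was 2255 and 2631 UMIs in neurons and 623 to 1211 UMIs in the glial classes. Among neurons, groups led by the hypothalamic peptide genes Hcrt, Avp with Oxt, and Pmch were present. Levels are in CPM, that is, UMIs scaled so that every class of a library has the same total.

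Cyclic AMP carries the signal of many hormone and neuropeptide receptors. Receptors coupled to the stimulatory G protein switch on the membrane adenylyl cyclases, and cyclic AMP then acts on protein kinase A, on Epac exchange factors and on cation channels. Phosphodiesterases end the signal. Pde4, Pde7 and Pde8 enzymes are selective for cyclic AMP, Pde5, Pde6 and Pde9 for cyclic GMP, and Pde1, Pde2, Pde3, Pde10 and Pde11 enzymes cleave both. In the hypothalamus cyclic AMP takes part in feeding, water balance and the daily clock.

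By UMIs, Pde4d (22576), Pde4b (14667), Pde10a (8261), Pde8b (4814) and Pde4dip (4072) led, and Pde4c (13), Pde6b (14) and Pde5a (35) were the scarcest. Nuclear RNA is rich in introns and long genes can collect more UMIs, so levels were also set per length. Whether UMIs rose with gene span in these libraries was not tested. Per 100 kb of RefSeq gene span, Pde4b stood at 211 CPM, Pde8b at 152, Pde4dip at 151, Pde10a at 133, Pde4a at 127 and Pde4d at 126. Pde4d, whose gene spans 1302 kb, was thus the first by UMIs and the sixth per length. By mean CPM of the libraries, 13 members were highest in neurons, 6 in oligodendrocytes, 6 in tanycytes, 4 in microglia, 3 in astrocytes and 1 in oligodendrocyte precursors. Part of this tally rests on few UMIs, and in both libraries only 13 of the members had at least 20 UMIs in their highest class and stood above the next class: 7 in neurons, 3 in oligodendrocytes, 1 in tanycytes, 1 in microglia and 1 in astrocytes.

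**Figure D1:**
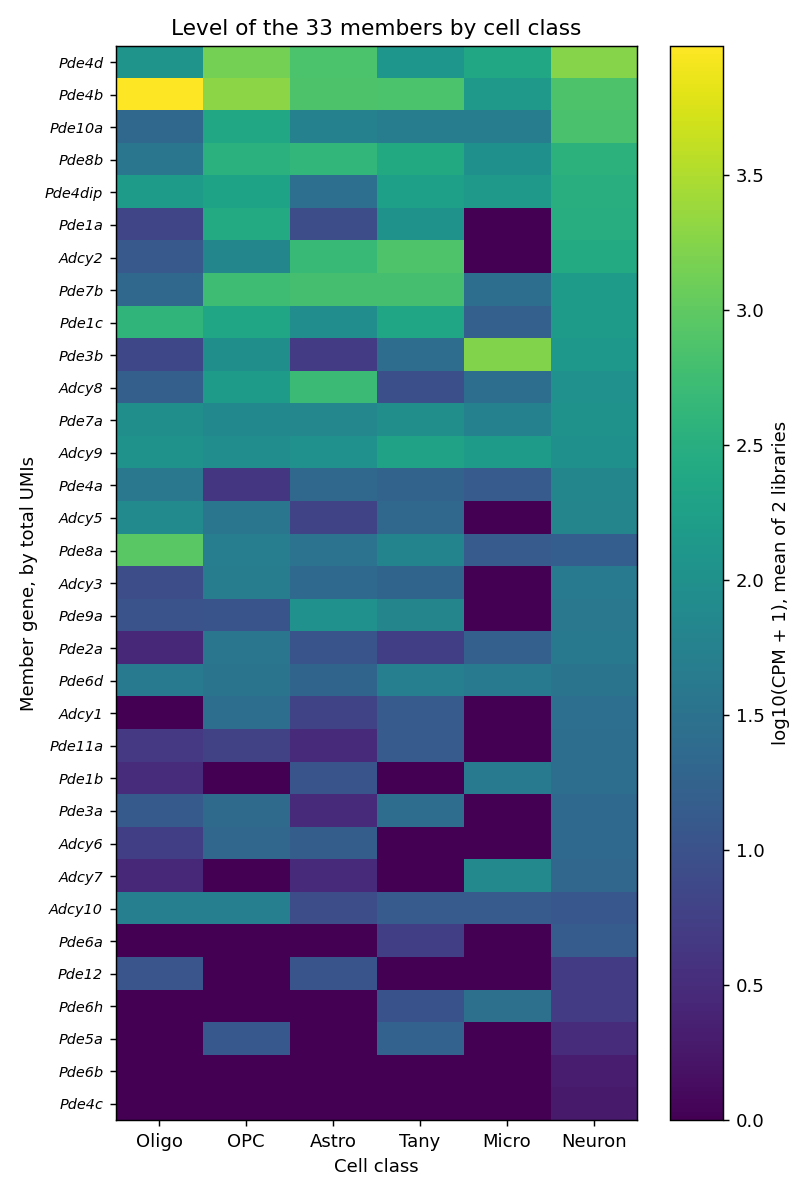
Level of each of the 33 members (rows, ordered by total UMIs) in 6 cell classes (columns), as log10 of CPM plus 1, mean of libraries A and B. Pde4b in oligodendrocytes is the brightest field, at 9496 CPM, and Pde3b stands out in microglia, at 1668 CPM.

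A low-count filter over the class sums left 6225 genes, among them 17 members; the other 16 members were too scarce to test between classes and are described by their values alone. The test was edgeR's quasi-likelihood test of each class against the average of the 5 other classes, with library as a block and Benjamini-Hochberg adjustment over all genes tested. Neurons had 11 of the 17 members higher and 1 lower, where 34.7% of all genes were higher and 14.6% lower. Astrocytes had 6 higher and 2 lower, against 21.3% and 6.83% of all genes. Oligodendrocytes had 4 higher and 6 lower, against 21.3% and 10.7% of all genes. Oligodendrocyte precursors had 10 higher and 0 lower, against 20% and 3.08% of all genes. Tanycytes had 3 higher and 3 lower, against 14.4% and 4.29% of all genes, and microglia had 1 higher and 8 lower, against 12.5% and 17.3%.

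The median log2 difference of the tested members was 1.31 in neurons, where that of all genes was 0.24. It was 1.25 in oligodendrocyte precursors (all genes 0.17), 0.29 in tanycytes (0.12), -0.09 in oligodendrocytes (0.11), -0.32 in astrocytes (0.12) and -1.85 in microglia (-0.56). These medians lean on members that passed the filter through the class where they are high. Several members had no UMI in microglia, so that their fitted differences depend on a prior count, and for those only levels and calls are given. The classes were found in the same nuclei. With library as a block, p-values set class differences against their disagreement between 2 libraries, with the spread estimated by sharing information over genes. A gene whose own libraries disagree can thus still have a small p-value, and the spread may be technical.

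The Pde4 enzymes are selective for cyclic AMP and are the targets of rolipram. Pde4b was highest in oligodendrocytes and Pde4d in neurons, and oligodendrocyte precursors held much of both. Summed over the subfamily, precursors had 3372 and 3242 CPM, above the 2538 and 2584 CPM of neurons. Pde4b had 9569 and 9423 CPM in oligodendrocytes, 2004 and 1830 CPM in oligodendrocyte precursors, 791 and 672 CPM in astrocytes, 685 and 724 CPM in tanycytes, 678 and 768 CPM in neurons, and 157 and 123 CPM in microglia. Oligodendrocytes were thus 4.95-fold above the next class by mean CPM, and no library of another class came near them. The log2 difference from the average of the other classes was 4.15 (SE 0.11, edgeR adjusted p = 8.27e-308). Oligodendrocyte precursors also passed as higher, at a log2 difference of 1.36 (SE 0.16), and microglia as lower, at -4.04 (SE 0.36). Tanycytes were called lower too (-0.77, SE 0.23), a call lost without library A (-0.76) and without the library block. With every nucleus thinned to 500 UMIs, 98.1% and 96.2% of oligodendrocyte nuclei had a Pde4b UMI, against 10.9% and 4.26% of microglia (99.2% and 99.0% against 10.9% and 6.38% unthinned). Oligodendrocyte markers in neurons stood at 0.587% and 0.657% of their level in oligodendrocytes, whereas Pde4b in neurons stood at 7.08% and 8.15% of its level there.

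For Pde4d, neurons stood at the top and oligodendrocytes near the bottom. It reached 1800 and 1744 CPM in neurons, 1362 and 1412 CPM in oligodendrocyte precursors, 706 and 722 CPM in astrocytes, 236 and 245 CPM in microglia, 162 and 84.2 CPM in tanycytes, and 78.6 and 148 CPM in oligodendrocytes. Neurons were above every other class in both libraries, with precursors close behind. It was called higher in neurons (log2 difference 2.64, SE 0.12, edgeR adjusted p = 3.25e-104), in precursors (2.24, SE 0.16) and in astrocytes (1.08, SE 0.17), and lower in tanycytes (-2.17, SE 0.32), oligodendrocytes (-2.12, SE 0.25) and microglia (-1.67, SE 0.37). Neuron markers in precursors stood at 12.9% and 21.0% of their neuron level, where Pde4d in precursors stood at 75.7% and 81.0% of its own. In tanycytes neuron markers stood at 19.8% and 18.7%, and Pde4d at 9.01% and 4.83%. Pde4a, too scarce to test, had 58.7 and 71.7 CPM in neurons and 44.8 CPM or less in every glial library, and the 13 UMIs of Pde4c were all in neurons.

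Across the subfamily, Pde4b made up 98.4% ± 0.607 of Pde4 UMIs in oligodendrocytes (SD, n = 2), 83.5% ± 6.07 in tanycytes, 57.9% ± 2.09 in oligodendrocyte precursors, 49.8% ± 3.31 in astrocytes and 28.2% ± 2.13 in neurons. These are shares of UMIs, not scaled by gene length, and are compared between classes only. Pde4d took most of the rest, from 1.17% ± 0.513 in oligodendrocytes to 69.2% ± 2.43 in neurons. Precursors and oligodendrocytes, stages of the same lineage, therefore differed in Pde4d as well as Pde4b: Pde4d was over 1300 CPM in the precursors and under 150 CPM in the oligodendrocytes of each library.

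Pde8 enzymes bind cyclic AMP tightly and resist the general inhibitor IBMX, and their members changed places between oligodendrocytes and neurons. Pde8a had 950 and 873 CPM in oligodendrocytes, 54.1 and 67.3 CPM in tanycytes, 39.3 and 58.4 CPM in oligodendrocyte precursors, 52.2 and 11.2 CPM in astrocytes, 26.2 and 0 CPM in microglia, and 15.3 and 14.1 CPM in neurons. The gap to the next class was 15.01-fold by mean CPM, with a log2 difference of 5.22 for oligodendrocytes against the average of the others (SE 0.19, edgeR adjusted p = 1.24e-159). It was also called lower in neurons (-1.96, SE 0.63, edgeR adjusted p = 0.00503) and in microglia, where the call rests on 1 UMI. The microglia call was lost when either library was left out, with DESeq2, with no low-count filter and after thinning to 500 UMIs. Thinned to 500 UMIs, 36.0% and 32.7% of oligodendrocyte nuclei had a Pde8a UMI, against 0.707% and 0.895% of neurons (44.5% and 45.4% against 3.60% and 3.86% unthinned). The neuron level was 1.61% of the oligodendrocyte level in both libraries, where the oligodendrocyte markers in neurons were at 0.587% and 0.657%.

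Pde8b had 514 and 353 CPM in astrocytes, 383 and 331 CPM in neurons, 301 and 380 CPM in oligodendrocyte precursors, 225 and 303 CPM in tanycytes, 105 and 92.1 CPM in microglia, and 24.99 and 44.8 CPM in oligodendrocytes. The upper classes overlapped between libraries, and oligodendrocytes lay below all others. It was called higher in astrocytes (log2 difference 1.67, SE 0.20), neurons (1.31, SE 0.15) and precursors (1.20, SE 0.25), and lower in oligodendrocytes (-2.73, SE 0.37, edgeR adjusted p = 1.07e-12) and microglia (-1.78, SE 0.51); the microglia call was lost without library A (-1.95). Pde8a made up 96.3% ± 1.64 of Pde8 UMIs in oligodendrocytes and 3.96% ± 0.154 in neurons (SD, n = 2).

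**Figure D2:**
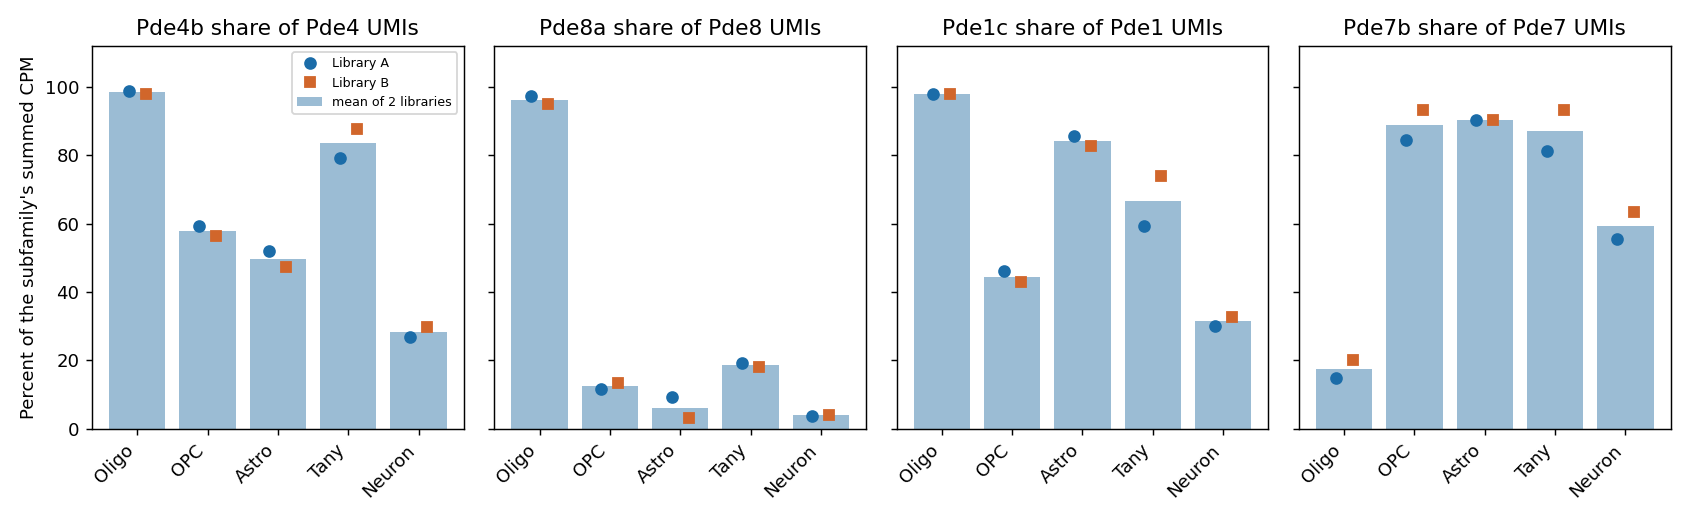
Share of a subfamily's UMIs held by Pde4b, Pde8a, Pde1c and Pde7b in 5 cell classes, in percent; bars are means of 2 libraries and points the libraries. Oligodendrocytes stand at 98.4% Pde4b, 96.3% Pde8a and 98.0% Pde1c, but at 17.4% Pde7b.

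The starts of Pde8a and Pde4b are shown because these genes had the largest log2 differences in oligodendrocytes. In the RefSeq promoter table for GRCm38.p6, which gives 250 bases before to 50 bases after each start, 26 of the 33 members matched with 51 promoters. Pde8a has 1 annotated start there, at chr7:81213015-81213314 on the plus strand. The first of 4 annotated Pde4b starts lies at chr4:102421305-102421604 on the plus strand; 3′-end counts do not tell which start was used. Capitals mark TGACG or its complement CGTCA, the core of the cyclic AMP response element.
Pde8a: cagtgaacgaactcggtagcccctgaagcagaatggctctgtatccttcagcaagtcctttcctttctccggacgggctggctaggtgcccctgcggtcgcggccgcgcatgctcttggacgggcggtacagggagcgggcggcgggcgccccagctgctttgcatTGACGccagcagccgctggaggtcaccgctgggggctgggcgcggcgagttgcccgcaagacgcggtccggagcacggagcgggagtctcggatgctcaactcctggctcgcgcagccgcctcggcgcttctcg
Pde4b: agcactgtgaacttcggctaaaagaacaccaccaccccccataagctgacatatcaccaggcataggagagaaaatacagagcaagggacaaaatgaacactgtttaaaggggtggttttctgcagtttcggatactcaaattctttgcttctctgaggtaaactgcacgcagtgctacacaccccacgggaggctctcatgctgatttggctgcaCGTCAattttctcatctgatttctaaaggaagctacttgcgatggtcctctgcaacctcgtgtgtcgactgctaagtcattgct
The full element TGACGTCA, which contains the core, was in 0 of the 51 member promoters and in 1.79% of all 32851 promoters, searched on both strands. The core was in 9 of the 51 (17.6%) and in 20.8% of all promoters. No match means only that these letters are not in this window.

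Pde7 enzymes are also selective for cyclic AMP, and here Pde7b set astrocytes, tanycytes and precursors apart from oligodendrocytes. Pde7b had 642 and 622 CPM in astrocytes, 586 and 690 CPM in tanycytes, 576 and 535 CPM in oligodendrocyte precursors, 138 and 178 CPM in neurons, 52.4 and 0 CPM in microglia, and 14.3 and 26.9 CPM in oligodendrocytes. Astrocytes and tanycytes did not differ beyond the spread of their libraries, and precursors lay just below both. The calls were higher in astrocytes (log2 difference 2.53, SE 0.20, edgeR adjusted p = 2.26e-35), precursors (2.34, SE 0.23) and tanycytes (2.16, SE 0.26), and lower in oligodendrocytes (-3.41, SE 0.63) and microglia (-3.71, SE 0.69). Pde7a was flat by comparison. It had 111 and 103 CPM in neurons, 82.1 and 107 CPM in oligodendrocytes, 135 and 50.5 CPM in tanycytes, 105 and 38.9 CPM in precursors, 68.2 and 67.2 CPM in astrocytes, and 78.7 and 30.7 CPM in microglia. Its call as higher in neurons (0.65, SE 0.20, edgeR adjusted p = 0.00385) was lost with DESeq2, without the library block and without the microglia class.

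Pde1 enzymes are switched on by calcium and calmodulin. Pde1a had 295 and 304 CPM in neurons, 275 and 273 CPM in oligodendrocyte precursors, 117 and 101 CPM in tanycytes, 4.01 and 11.2 CPM in astrocytes, 7.14 and 4.48 CPM in oligodendrocytes, and 0 CPM in microglia, where 3 counts would give 78.7 and 92.1 CPM. Neurons and precursors were close, with no overlap, and both were far above astrocytes and oligodendrocytes. It was called higher in neurons (edgeR adjusted p = 1.09e-56), precursors (1.00e-21) and tanycytes (0.00637), and lower in microglia (0.0121). The microglia call was lost without either library, and the tanycyte call without library A or without the microglia class. Pde1a in tanycytes stood at 39.7% and 33.2% of its neuron level, where neuron markers stood at 19.8% and 18.7%.

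Pde1c was highest where Pde1a was nearly absent. It had 361 and 439 CPM in oligodendrocytes, 171 and 286 CPM in tanycytes, 236 and 204 CPM in oligodendrocyte precursors, 135 and 166 CPM in neurons, 72.3 and 106 CPM in astrocytes, and 0 and 30.7 CPM in microglia. Oligodendrocytes lay above every other class in both libraries, at a log2 difference of 2.26 (SE 0.23, edgeR adjusted p = 3.87e-22). It was also called higher in precursors (1.25, SE 0.33), a call lost without library A (0.87) and without the microglia class (0.31), and lower in microglia (-4.41, SE 0.84). Pde1c made up 98.0% ± 0.0412 of Pde1 UMIs in oligodendrocytes and 31.4% ± 1.82 in neurons (SD, n = 2). Pde1b, not tested, had 16.6 and 36.2 CPM in neurons and at most 2 UMIs in any glial library. At that depth its mean was 41.6 CPM in microglia against 26.4 CPM in neurons, with overlapping libraries, so the classes cannot be ranked.

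Among the enzymes that cleave both nucleotides, Pde3b, which cyclic GMP inhibits and which acts downstream of insulin in fat and liver, marked microglia. It had 1678 and 1657 CPM in microglia, from 64 and 54 UMIs, 137 and 130 CPM in neurons, 72.0 and 117 CPM in oligodendrocyte precursors, 18.0 and 33.7 CPM in tanycytes, 8.03 and 0 CPM in astrocytes, and 3.57 and 8.95 CPM in oligodendrocytes. Microglia were 12.5-fold above neurons by mean CPM, with a log2 difference of 5.44 from the average of the others (SE 0.29, edgeR adjusted p = 7.53e-77). Of 17 tested members it was the only one called higher in microglia. Thinned to 500 UMIs, 54.5% and 57.4% of microglia had a Pde3b UMI, against 0.330% and 0% of astrocytes (58.2% and 61.7% against 0.660% and 0% unthinned). Neurons were also called higher (1.93, SE 0.25), and astrocytes (-3.84, SE 0.78) and oligodendrocytes (-3.38, SE 0.75) lower. In neurons Pde3b stood at 8.15% and 7.82% of its microglia level, where microglia markers stood at 1.28% and 1.51%. The call in precursors (1.27, SE 0.46) was lost without either library (1.63 without library A and 0.91 without library B). That call was also lost with no low-count filter and after thinning to 500 UMIs.

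Pde10a, the phosphodiesterase best known from striatal neurons, was a neuron gene here too. It had 625 and 745 CPM in neurons, 229 and 243 CPM in oligodendrocyte precursors, 44.2 and 67.2 CPM in astrocytes, 45.1 and 50.5 CPM in tanycytes, 0 and 92.1 CPM in microglia, and 10.7 and 31.3 CPM in oligodendrocytes. Neurons were 2.90-fold above precursors, at a log2 difference of 3.80 from the average of the others (SE 0.17, edgeR adjusted p = 2.82e-113), and precursors were called higher too (log2 difference 2.003, SE 0.32). Pde10a in precursors was at 36.7% and 32.7% of its neuron level, above the 12.9% and 21.0% of the neuron markers. Pde2a, which cyclic GMP stimulates, had 38.4 and 41.0 CPM in neurons, and Pde11a had 17.3 and 35.0 CPM there. Pde3a had 19.97 and 24.5 CPM in neurons. These members were too scarce in glia for the test, with 6 UMIs or fewer in any glial library. By mean CPM, Pde2a in precursors (35.8) and Pde3a in tanycytes (25.2) were near their neuron levels.

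**Figure D3:**
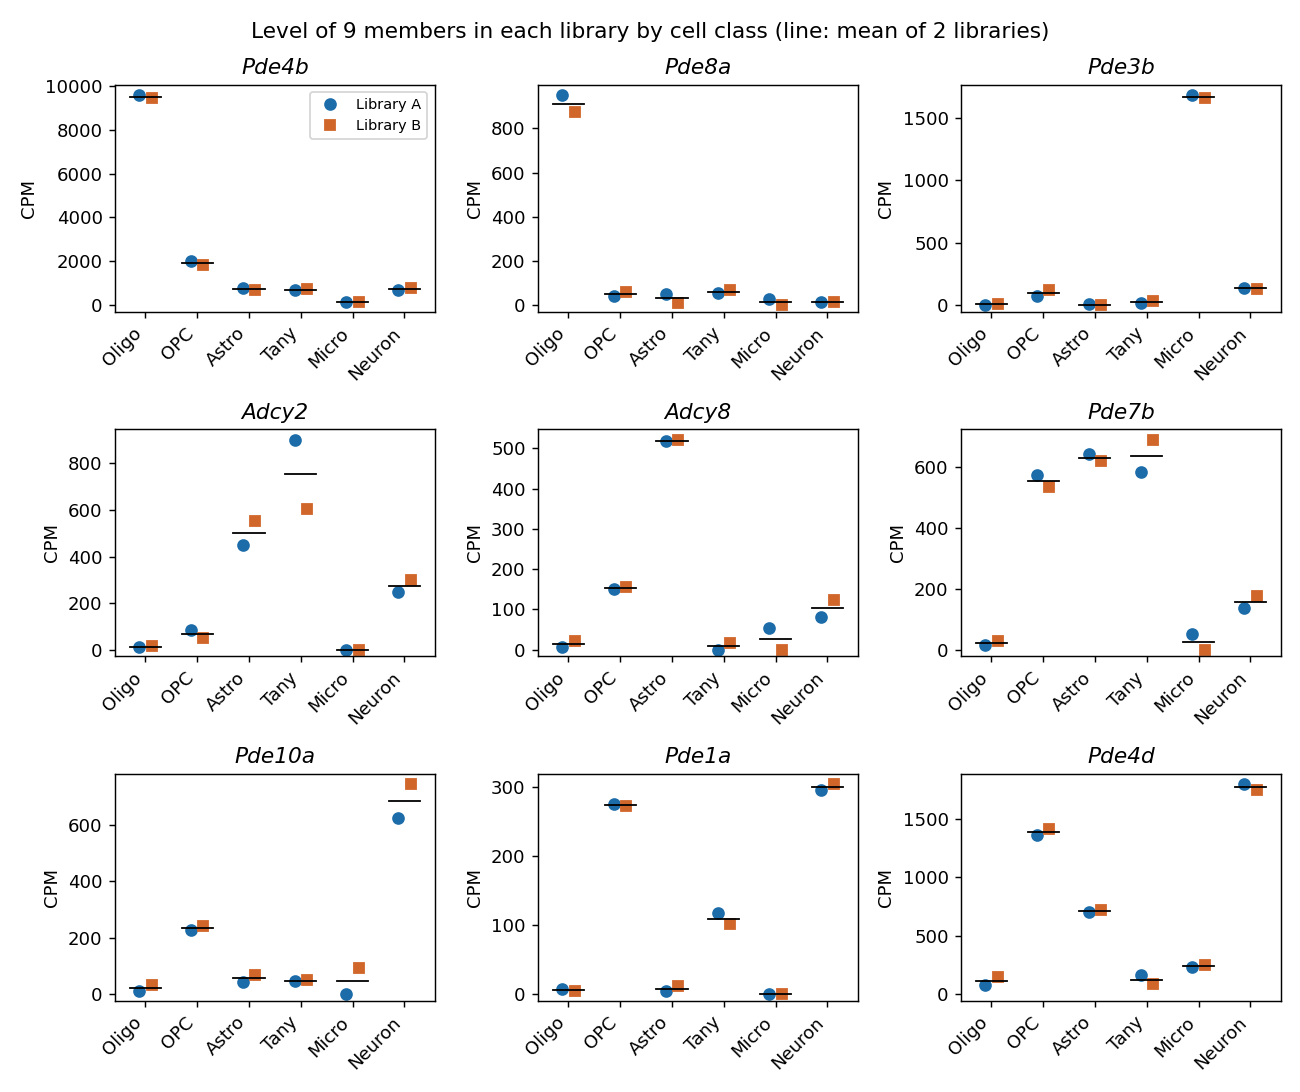
CPM of 9 members in 6 cell classes; circles are library A, squares library B and lines their mean, on linear axes that differ between panels. Pde4b and Pde8a peak in oligodendrocytes, Pde3b in microglia, Adcy8 in astrocytes, and Pde4d and Pde10a in neurons.

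The cyclic GMP enzymes were sparse. Pde9a had 44.2 and 157 CPM in astrocytes, 45.1 and 84.2 CPM in tanycytes and 32.98 and 44.5 CPM in neurons, and 0 UMIs in microglia. The astrocyte libraries differed widely, and library A of astrocytes overlapped tanycytes and neurons. It was called higher in astrocytes (edgeR adjusted p = 2.65e-08) and in neurons (0.00466); the neuron call was lost without library A, with DESeq2, without the library block and without the microglia class. Pde5a, the target of sildenafil, had 35 UMIs in all and 2.58 and 1.91 CPM in neurons. Of the photoreceptor genes, Pde6a had 13.4 and 13.1 CPM in neurons and Pde6b 14 UMIs, all in neurons. Pde6h had 49 UMIs, 2.58 and 5.72 CPM in neurons. The scaffold gene Pde4dip had 306 and 342 CPM in neurons and 32.1 and 22.4 CPM in astrocytes, and was called higher in neurons (log2 difference 1.69, SE 0.15) and lower in astrocytes (-2.52, SE 0.39). Its call as higher in precursors (0.89, SE 0.29), at 203 and 195 CPM, was lost without either library (0.69 without library A and 0.99 without library B). The same call was lost with no low-count filter and after thinning to 500 UMIs. Pde6d, tested and called in no class, had 33.1 and 31.7 CPM in neurons, and Pde12 had 60 UMIs, 4.51 and 3.81 CPM in neurons.

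Summed over the 9 Adcy members, astrocytes had 1108 and 1249 CPM, tanycytes 1181 and 858 CPM, neurons 566 and 754 CPM, oligodendrocyte precursors 419 and 555 CPM, microglia 262 and 276 CPM and oligodendrocytes 246 and 304 CPM. The sum over all Pde-named members was 11369 and 11384 CPM in oligodendrocytes and 4864 and 5135 CPM in neurons, and it includes genes that are not hydrolases. Most of the oligodendrocyte sum was Pde4b: without it, the sum was 1800 and 1961 CPM in oligodendrocytes and 4186 and 4366 CPM in neurons. These sums are not scaled by length, and were not tested.

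Adcy2, which the beta gamma subunits of G proteins stimulate, had 901 and 606 CPM in tanycytes, 450 and 554 CPM in astrocytes, 248 and 297 CPM in neurons, 85.1 and 48.7 CPM in oligodendrocyte precursors, 10.7 and 13.4 CPM in oligodendrocytes, and 0 UMIs in microglia. Tanycytes lay above astrocytes in both libraries, though the tanycyte libraries differed widely from each other. It was called higher in tanycytes (edgeR adjusted p = 2.96e-36), astrocytes (1.76e-33) and neurons (3.04e-17), and lower in microglia (3.66e-06). Adcy8, which calcium and calmodulin stimulate, had 518 and 521 CPM in astrocytes, 151 and 156 CPM in oligodendrocyte precursors, 80.6 and 124 CPM in neurons, 52.4 and 0 CPM in microglia, 7.14 and 22.4 CPM in oligodendrocytes, and 0 and 16.8 CPM in tanycytes. Astrocytes were 3.39-fold above precursors, at a log2 difference of 4.19 from the average of the others (SE 0.25, edgeR adjusted p = 6.81e-61).

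Tanycytes and astrocytes, related glial types, thus both held much Adcy2, whereas Adcy8 was at 222 UMIs over the astrocytes and 1 UMI over the tanycytes of both libraries. Adcy8 was called lower in tanycytes, a call lost without library A and at a clustering resolution of 2. It was also called higher in precursors (2.10, SE 0.42) and neurons (1.31, SE 0.31), and lower in oligodendrocytes (-2.03, SE 0.75). The oligodendrocyte call was lost without library A (-1.50), with no low-count filter and after thinning to 500 UMIs.

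Adcy5, which calcium inhibits, had 64.3 and 94.0 CPM in oligodendrocytes, 48.2 and 81.0 CPM in neurons, 32.7 and 38.9 CPM in precursors, 9.01 and 33.7 CPM in tanycytes, 0 and 11.2 CPM in astrocytes, and 0 UMIs in microglia. Oligodendrocytes and neurons overlapped. It was called higher in oligodendrocytes (edgeR adjusted p = 4.04e-07) and in neurons (2.70e-08). Adcy9, a cyclase that responds little to forskolin, was called in no class, with 94.7 and 103 CPM in neurons and 216 and 168 CPM in tanycytes. Adcy10, the soluble cyclase that bicarbonate stimulates, was not tested. It had 53.6 and 49.2 CPM in oligodendrocytes, from 15 and 11 UMIs, and 9.66 and 12.6 CPM in neurons. Precursors overlapped oligodendrocytes, at 32.7 and 68.2 CPM from 5 and 7 UMIs. The others were not tested either: Adcy1 had 17.6 and 36.4 CPM in neurons, Adcy3 35.3 and 49.5, Adcy6 17.5 and 25.7 and Adcy7 14.8 and 23.8. Adcy7 had 1 and 4 UMIs in microglia, 26.2 and 123 CPM.

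Other genes of the pathway were read from a list of 64, of which 40 could be tested between classes. In neurons 23 were called higher and 5 lower, 57.5% and 12.5% of the list, where 34.7% and 14.6% of all genes were. In astrocytes 9 were higher and 7 lower, 22.5% and 17.5%, against 21.3% and 6.83% of all genes. In oligodendrocytes 8 were higher and 8 lower, 20% each, against 21.3% and 10.7%. Precursors had 9 higher and 1 lower (22.5% and 2.5%, against 20% and 3.08%), tanycytes 6 and 1 (15% and 2.5%, against 14.4% and 4.29%) and microglia 4 and 7 (10% and 17.5%, against 12.5% and 17.3%). Outside neurons the shares called higher were thus near those of all genes, as were the shares called lower in precursors, tanycytes and microglia. In neurons, large fitted differences were those of the cyclic GMP kinase Prkg2 (24.2 and 19.3 CPM) and the Epac gene Rapgef4 (239 and 297 CPM). Prkg2 had 0 UMIs in all classes but neurons and precursors, so that its fitted difference depends on a prior count. Precursors held more Prkg2 than neurons, at 255 and 156 CPM. On the lower side were the inhibitory G protein gene Gnai2 (30.5 and 31.2 CPM) and the transcription factor Creb1 (44.7 and 61.2 CPM). The kinase anchor Akap13 (161 and 88.3 CPM) was lower too. Astrocytes had the other Epac gene, Rapgef3, at 84.3 and 84.0 CPM. The natriuretic peptide receptor Npr2 (68.2 and 50.4 CPM) and the anchor Akap6 (542 and 566 CPM) were called higher there too. Neurons were also called higher for Npr2 (49.7 and 46.0 CPM) and Akap6 (657 and 774 CPM). For Akap6, oligodendrocytes (396 and 385 CPM) and precursors (242 and 409 CPM) were called higher as well. Lower in astrocytes were the G protein genes Gnb4 (0 and 5.60 CPM) and Gnai1 (12.04 and 11.2 CPM) and the cyclic GMP kinase Prkg1 (32.1 and 33.6 CPM).

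Oligodendrocytes had the channel Hcn2 at 139 and 282 CPM, the G protein gamma subunit Gng7 at 75.0 and 89.5 CPM and Gnai1 at 361 and 287 CPM, all called higher. There the soluble guanylyl cyclase subunit Gucy1a2 (10.7 and 13.4 CPM), Prkg1 (32.1 and 17.9 CPM) and Gng2 (3.57 and 8.95 CPM) were called lower. Hcn2 (17.9 and 36.2 CPM) and Gnai1 (104 and 91.4 CPM) were also called higher in neurons. Precursors had Prkg2 at 255 and 156 CPM, the kinase inhibitor Pkia at 249 and 214 CPM and Rapgef4 at 164 and 146 CPM. Pkig was lower there at 6.55 and 19.5 CPM, and Pkia was also called higher in neurons, at 229 and 180 CPM. Tanycytes had Npr2 at 72.1 and 50.5 CPM, from 8 and 3 UMIs, and the coactivator Crtc3 at 234 and 219 CPM. Prkg1 stood at 1018 and 774 CPM there, and Akap6 was lower at 72.1 and 84.2 CPM. Prkg1 was also called higher in neurons (1337 and 1215 CPM) and precursors (805 and 896 CPM), and Crtc3 in astrocytes (100 and 134 CPM). Microglia had Gng2 at 341 and 307 CPM, Pkig at 420 and 92.1 CPM and Akap13 at 551 and 644 CPM. Gnao1, Akap6 and Gucy1a2 were lower there, each at 2 UMIs or fewer per library. Gng2 was also called higher in neurons (126 and 161 CPM), and Akap13 in precursors (327 and 282 CPM) and tanycytes (406 and 320 CPM).

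Within neurons, nuclei were marked for GABA by Slc32a1, Gad1 or Gad2 without Slc17a6 (1085 and 569 nuclei) or for glutamate by Slc17a6 alone (775 and 328 nuclei). Median depth was 2305 and 2712 UMIs in GABA-marked and 2749 and 3083 UMIs in glutamate-marked nuclei. Of 29 members tested, 1 was called higher in GABA-marked neurons, where 1.87% of 12069 genes were, and 5 were called lower, where 3.47% were. With library left out of the model as a block, neither count kept a call (0 and 0).

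Pde4b had 497 and 558 CPM in GABA-marked neurons, against 872 and 1073 CPM in glutamate-marked neurons, a log2 difference of -0.92 (SE 0.08, edgeR adjusted p = 7.72e-09). Pde1c had 80.2 and 136 CPM in GABA-marked and 171 and 211 CPM in glutamate-marked neurons (-0.93, SE 0.11, edgeR adjusted p = 1.34e-06). Adcy8 had 60.1 and 93.3 CPM in GABA-marked and 100 and 197 CPM in glutamate-marked neurons (-0.95, SE 0.12, edgeR adjusted p = 1.70e-06). In each library the GABA-marked nuclei were lower for all of these, and the groups did not overlap. Pde4d had 1448 and 1577 CPM in GABA-marked and 2127 and 2083 CPM in glutamate-marked neurons (-0.53, SE 0.08, edgeR adjusted p = 7.64e-05). Pde3a had 12.3 and 14.0 CPM in GABA-marked and 29.2 and 38.8 CPM in glutamate-marked neurons (-1.38, SE 0.22, edgeR adjusted p = 0.000100), a call that DESeq2 did not make. After thinning to 500 UMIs the calls of Pde1c (edgeR adjusted p = 0.330) and Adcy8 (edgeR adjusted p = 0.404) were among those lost.

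Pde7b went the other way, with 166 and 197 CPM in GABA-marked and 120 and 142 CPM in glutamate-marked neurons (log2 difference 0.42, SE 0.10, edgeR adjusted p = 0.00735). Its groups did not overlap, but the call was lost with DESeq2, with at least 2 marking UMIs, without the block and after thinning. Pde1a (0.30, SE 0.09, edgeR adjusted p = 0.0547) and Pde10a (0.27, SE 0.08, edgeR adjusted p = 0.0567) had values just outside the threshold.

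**Figure D4:**
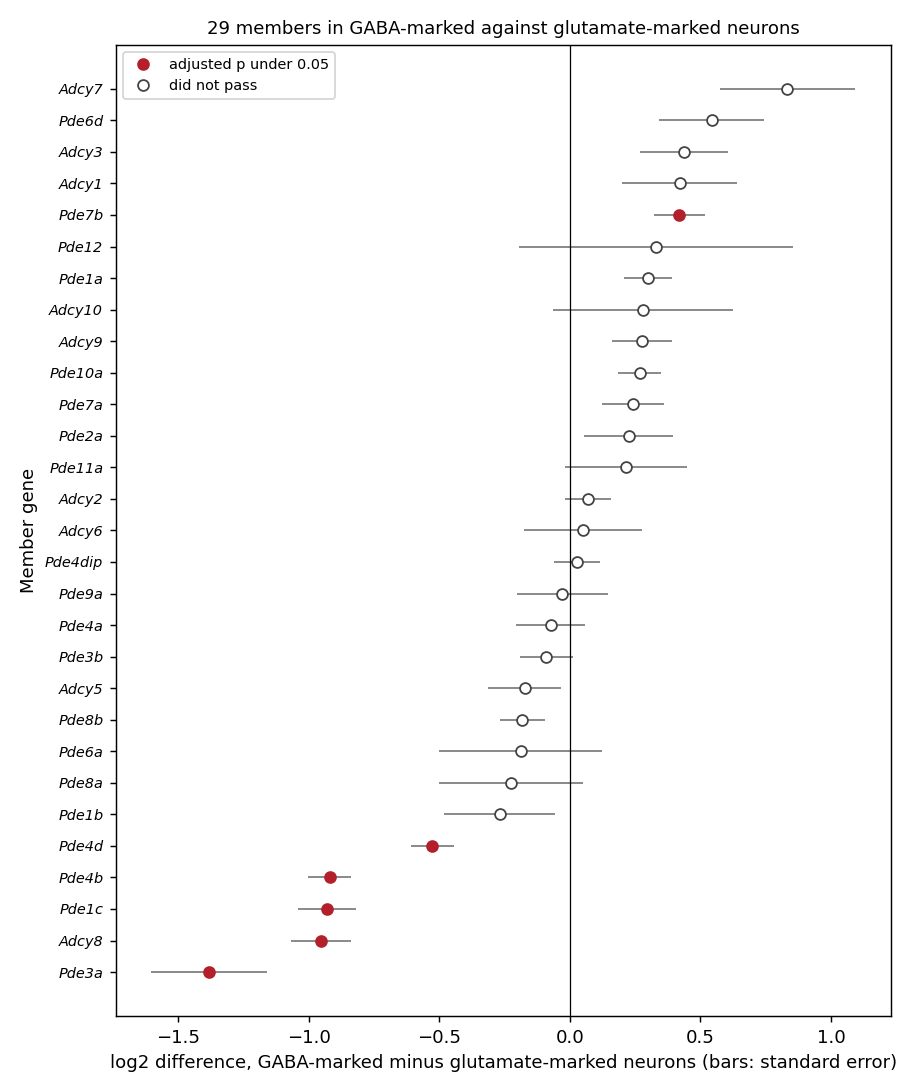
Log2 difference between GABA-marked and glutamate-marked neurons for the 29 members tested. Points are edgeR estimates, bars standard errors worked back from the F statistic, and filled points have an adjusted p under 0.05. Pde3a, Adcy8, Pde1c, Pde4b and Pde4d lie on the negative side and Pde7b on the positive side.

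The 4424 neuron nuclei fell into 16 groups, of which 9 had at least 20 nuclei in each library and held 4134 nuclei. Groups came from the same nuclei, so no test was run, and a member was noted in a group when it was at least 2-fold above all other neurons in both libraries with at least 10 UMIs. This held for 8 of 216 pairs of member and group (3.70%), where it held for 1.92% of pairs over all genes. The pairs lay in 3 groups.

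The group led by Myo5b and Tanc1 (207 and 92 nuclei) held 4 of them. Pde1c had 578 and 595 CPM there, against 103 and 139 CPM in other neurons, 5.60-fold and 4.29-fold. Pde4b had 1616 and 1681 CPM against 611 and 711 CPM in other neurons, Adcy2 545 and 571 CPM against 227 and 280 CPM, and Adcy8 219 and 377 CPM against 70.8 and 109 CPM. Pde1a, by contrast, was at its lowest in this group, with 36.9 and 12.1 CPM. Pde4d was also highest there, at 3674 and 3143 CPM, 2.21-fold and 1.90-fold over other neurons.

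The group led by Vipr2 and Prok2 (109 and 68 nuclei), genes known from the suprachiasmatic nucleus, held 3 pairs. Pde10a had 2098 and 1944 CPM there, against 587 and 706 CPM in other neurons. Pde7b had 616 and 756 CPM against 125 and 159 CPM in other neurons, 4.91-fold and 4.75-fold, and Pde2a 92.3 and 139 CPM against 37.0 and 37.8 CPM. Tanycyte markers in this group stood at 16.9% and 15.4% of their tanycyte level, against 4.29% and 4.21% in all neurons. Tanycytes had 586 and 690 CPM of Pde7b but 45.1 and 50.5 CPM of Pde10a. Whether tanycyte RNA adds to these levels was not tested. Pde8b, Pde1c and Adcy8 were at their lowest in this group, with 66.7 and 23.1 CPM, 10.3 and 15.4 CPM, and 10.3 and 15.4 CPM. A Pde10a UMI was in 61.5% and 60.3% of the nuclei, at median depths of 1551 and 1692 UMIs, against 55.3% and 66.0% of other neurons at 2275 and 2662 UMIs. Single nuclei of the group held up to 23 and 50 Pde10a UMIs. The group led by Ebf3 and Tafa1 (108 and 47 nuclei) held the last pair, Pde11a at 62.4 and 207 CPM against 15.7 and 30.1 CPM in other neurons, from 16 and 24 UMIs.

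Among the 9 groups, Pde1a was highest in the one led by Calcrl and Sst, at 561 and 799 CPM (1.97-fold and 2.70-fold over other neurons), and Pde8b in the group led by Hmcn2 and Gpr149, at 602 and 518 CPM (1.72-fold and 1.64-fold). Pde4d was lowest in the Hmcn2 and Gpr149 group, at 796 and 928 CPM. The highest group was not set apart from the next for 20 of the 33 members, abundant ones such as Pde4dip and Adcy2 among them. Pde3b varied little, from 108 to 143 CPM by group means. The highest groups by mean CPM of the remaining members were as follows. Of these, only those of Pde9a, Adcy9, Pde7a and Pde5a were set apart from the next, and Pde5a had 35 UMIs in all. Pde4c (SD 6.08), Pde12 (SD 11.3), Pde6h (SD 9.90) and Pde6b (SD 6.07) had an SD between libraries above their mean. Adcy5, Pde9a, Adcy1, Pde8a, Pde3a and Pde4c were highest in the Ebf3 and Tafa1 group, at 90.6, 75.8, 53.5, 23.1, 44.2 and 4.30 CPM. Pde4dip, Adcy9, Pde4a, Pde6d, Pde6a and Pde12 were highest in the Calcrl and Sst group, at 430, 136, 95.6, 38.6, 23.6 and 8.01 CPM. Pde7a and Adcy3 were highest in the Vipr2 and Prok2 group, at 140 and 59.1 CPM, and Pde1b and Adcy10 in the Myo5b and Tanc1 group, at 49.9 and 13.9 CPM. Adcy6, Pde5a and Pde6b were highest in the group led by Lmx1a and Ttc6, at 44.7, 11.5 and 4.29 CPM, and Adcy7 and Pde6h in the group led by Meis2 and Gm38505, at 30.2 and 8.06 CPM.

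**Figure D5:**
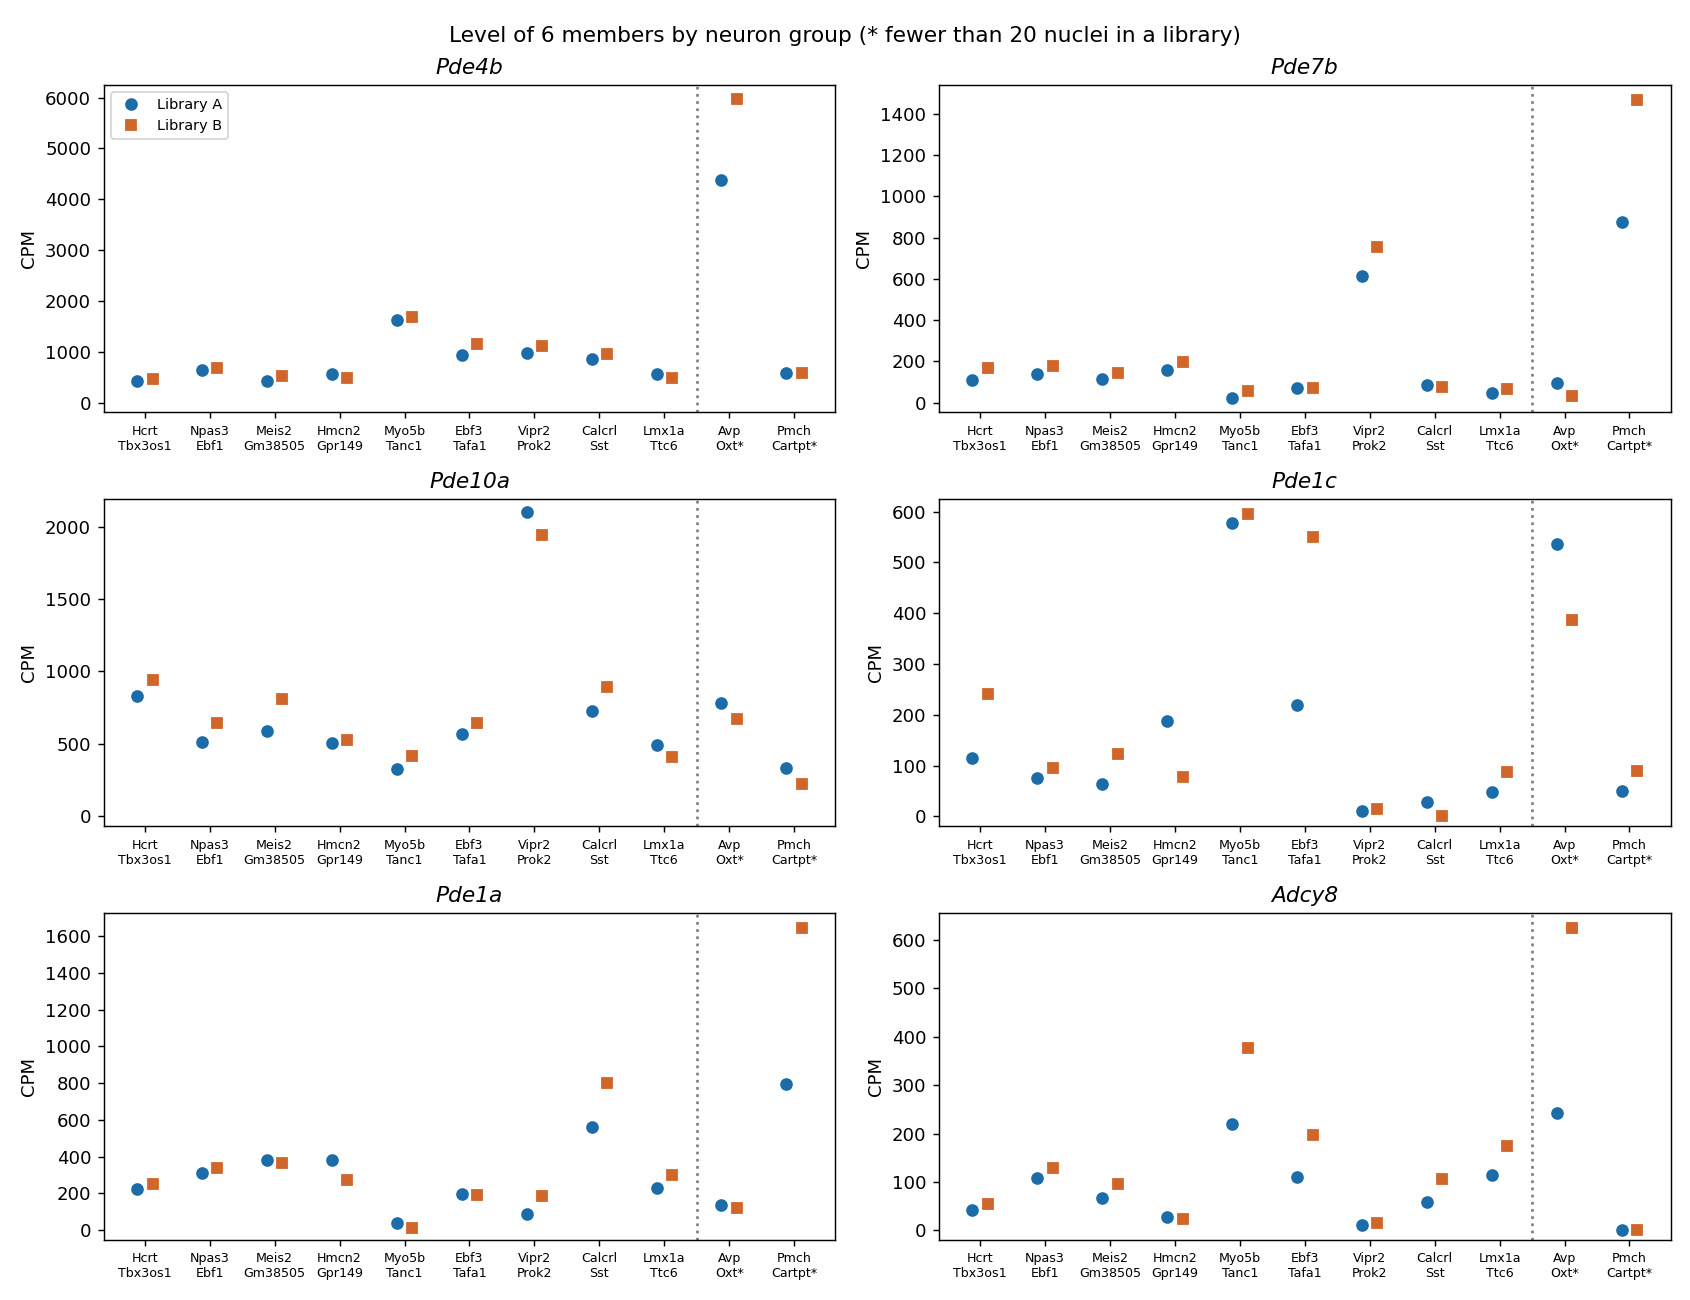
CPM of 6 members in 11 neuron groups, named by leading genes; circles are library A and squares library B, and groups right of the dotted line have fewer than 20 nuclei in a library. Pde4b reaches 4369 and 5971 CPM in the Avp and Oxt group, and Pde10a 2098 and 1944 CPM in the Vipr2 and Prok2 group.

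Peptide neurons in small groups, singled out after their values were seen, held the highest neuronal levels of some members. In the group led by Avp and Oxt (28 and 19 nuclei), the hormones of the posterior pituitary, Pde4b had 4369 and 5971 CPM, from 415 and 401 UMIs, against 632 and 684 CPM in other neurons. That is 6.91-fold and 8.73-fold, and 5033 CPM pooled (95% exact Poisson interval 4693 to 5390, counting error only). A Pde4b UMI was in 28 of 28 and 19 of 19 nuclei of this group, and in 55.9% and 63.8% of other neurons, at median depths of 3064 and 3673 UMIs against 2250 and 2630 UMIs. Oligodendrocyte markers in the group were at 0.408% and 0.300% of their oligodendrocyte level, no more than in neurons as a whole. Astrocyte markers there were at 7.94% and 0.924% of their astrocyte level, against 2.27% and 2.76% in all neurons. Pde1c (537 and 387 CPM) and Adcy8 (242 and 625 CPM) were also over 2-fold in both libraries.

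In the group led by Cartpt and by Pmch, the gene of melanin-concentrating hormone (18 and 4 nuclei), Pde7b had 878 and 1469 CPM, against 132 and 171 CPM in other neurons, and 1038 CPM pooled (interval 830 to 1282). Pde1a had 795 and 1647 CPM there, against 291 and 297 CPM in other neurons, and Adcy5 199 and 267 CPM against 47.0 and 80.0 CPM. Library B gave only 4 of these nuclei. In the group led by Rps6ka5 and Fgf13 (64 and 16 nuclei), Pde1a had 832 and 798 CPM, against 287 and 300 CPM in other neurons, and Pde3a 103 and 118 CPM against 18.6 and 23.8 CPM.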

How the data were processed

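Per the file headers, the deposited values are raw counts of UMIs for each gene in each barcode, from nuclei prepared with Chromium 3′ chemistry version 3.1, per the labels' protocols. The submitters' processing notes list Cell Ranger 5.0.1 and GRCh38, a human build, although the files carry mouse gene identifiers. The authors' barcode filter is not stated there. Promoters and gene spans are from RefSeq for GRCm38.p6, a build not tied to the counts. Per GENCODE M21, 0 of the 33 members overlap another gene of the files on the same strand.

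Nuclei were scaled to 10000 counts and log-transformed, and 3000 variable genes, members left out, gave 40 principal components and leiden clusters (20 neighbours, resolution 1, scanpy 1.11.5). A glial name needed at least 3 markers of the class 8-fold or more above the other clusters, with at least 10 UMIs each. Other clusters were called neurons if 6 or more of 12 neuron markers exceeded the glial mean 2-fold, unless their 10 leading genes held 2 or more markers of another class. Every class name stands for a likeness by markers (neuron-like and so forth). Scrublet called 6 and 42 nuclei (0.150% and 1.95%), too few in library A to have worked, and no doublet was removed; the analysis was repeated without its calls.

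UMIs were summed per class and library and tested with edgeR 4.0.16 (TMM, filterByExpr, library as a block, R 4.3.3), at a Benjamini-Hochberg adjusted p of 0.05. Since the classes of 1 library come from 1 preparation, the block pairs them. Standard errors (SE) were not fitted: each is the absolute log2 difference divided by the square root of the quasi-likelihood F statistic. On simulated data the class fit, run for astrocytes, recovered 56.5% of 2-fold and 86.8% of 4-fold changes, with 3 false calls over 4685 genes. The fit of GABA-marked against glutamate-marked neurons recovered 67% and 100%, with 4 false calls over 11927 genes. A 2-fold difference can thus go uncalled. DESeq2 1.42.0 and other settings were alternatives. The members, lists and rules were chosen with earlier results of these data known. Named by rule were members that passed in a class, up to 3 pathway genes per class and direction with the largest fitted difference, every member that passed between GABA-marked and glutamate-marked neurons, and each member's highest neuron group. A pathway gene that this rule names is not reported here. Total counts per library set the precision; intervals and the level that 3 counts would give cover counting error only.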

Additional observations from a re-analysis of the deposited data

How the results depend on the processing

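Between cell classes, the 17 tested members gave 35 calls of higher and 20 of lower over the 6 classes. Under the alternatives run these counts kept within 1.5 times: 30 to 46 for higher and 14 to 26 for lower. Without the library block, which pairs the classes of a library, they were 33 and 19. For the pathway list the 59 calls of higher became 34 after thinning to 500 UMIs. Its 29 calls of lower became 16 with no low-count filter, 18 without the block, 18 after thinning, and 13 to 19 with either library left out of the class under test.

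Between GABA-marked and glutamate-marked neurons, the 1 call of higher became 0 with DESeq2, 2 with RLE size factors, 0 with at least 2 marking UMIs, 4 with no low-count filter, 0 without the block, 0 after thinning and 3 in the transplanted-labelled deposits. The 5 calls of lower became 0 without the block and 2 after thinning. With either library alone there is no test; the log2 difference of Pde4b was then -0.81 to -0.94 and that of Pde7b 0.46 to 0.48. The 8 pairs of member and neuron group became 18 at a fold of 1.5, 4 at a fold of 3, 16 to 17 in either library alone, 13 at resolution 2 and 14 with groups of at least 10 nuclei, a setting added after seeing the data, as were the counts without scrublet calls, without the 5% of nuclei with most UMIs, with the mixed cluster among neurons and without the microglia class. No direction reversed under any setting run, and the cause of the lost calls was not tested. Leaving out clusters led by another class's markers was not run apart, since the 1 such cluster was left unnamed from the start.

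Depth limits the glia most. Microglia summed to 38137 and 32587 UMIs, so that 0 UMIs allow up to 78.7 and 92.1 CPM, and 16 members could not be tested between classes.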
